A study of Mus musculus with 4 samples.

Results

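The 10 genes P2ry12, Tmem119, Gpr34, Olfml3, Crybb1, Siglech, Sall1, P2ry13, Csf1r and Selplg, which mark microglia at rest, were followed in single CD45+ hematopoietic cells of the brain and the dura mater 3 days after photothrombotic injury (PTI, group D3) or sham surgery (group S3). They were taken by name as homeostatic microglia genes, with earlier results of these data known, and are 10 of the 19491 genes listed in any library. All 10 were listed in 4 of 4 libraries. In microglia-gated cells of the brain, summed over cells, every one of the 10 genes was lower in D3 than in S3. They ran from P2ry13 at 42.2% of its S3 level to Olfml3 at 95.2%. The median log2 ratio of all genes was itself below 0 in these cells, at -0.12, against -0.72 over the 10 genes. Olfml3 turned to a log2 ratio of 0.051 once the median of all genes was subtracted. The size of the difference varied with the UMI total of the cells that were summed. In cells of under 10000 UMIs, P2ry13, P2ry12, Siglech and Gpr34 stood lowest against S3, and the intervals of Tmem119, Olfml3 and Crybb1 held 0.

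Microglia are the resident macrophages of the brain parenchyma. At rest they survey the tissue with motile processes and carry a set of genes that other macrophages have at low levels, set by signals of the brain such as TGF-beta and by the CSF1 receptor, which they need for survival. This set is known to be turned down when microglia respond to injury, while genes of lipid handling, lysosomes and phagocytosis are turned up. Macrophages at the borders of the brain, such as those of the dura mater and the perivascular space, share Csf1r but most other genes of the set only weakly, and monocytes that enter injured brain become macrophages of another origin.

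Mice were adult C57BL/6J, 8 weeks old. No transgene or deletion is named for these groups. Each of the groups brain S3, brain D3, dura mater S3 and dura mater D3 was 1 library made with the Chromium 3′ v3 kit from CD45+ cells sorted by FACS, and the number of mice behind a library was not given in the sources used here. The labels mark the uninjured samples CT, and the study's text gives them as sham-operated. With 1 library per group no difference between groups could be tested: every interval given covers counting error only, and differences between mice, operations, digests and sorts cannot be told apart from the effect of the injury.

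The libraries held 49003977 UMIs (unique molecular identifiers, counted RNA molecules) in brain S3, 115154317 in brain D3, 54749012 in dura mater S3 and 55887697 in dura mater D3. After filtering, 3614, 4435, 3439 and 2603 cells were kept, with a median of 8245.5 UMIs per cell in brain S3, 14271 in brain D3, 9320 in dura mater S3 and 14156 in dura mater D3. Any 2 libraries shared from 3 to 11 cell barcodes. The female-specific Xist was at 0.096 CPM or below in every library (CPM, UMIs of a gene per 1000000 UMIs).

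Cells were called microglia-gated for a given member only by the other 9 members: a cell needed a UMI of at least 5 of them, and a larger share of them than of the 6 markers of any of 13 other classes. Over all 10 members this took 440 cells in brain S3 (12.2% of kept cells, 95% interval 11.1 to 13.3) and 598 cells in brain D3 (13.5%, 12.5 to 14.5), with median UMIs of 9648 and 9476.5. Only 6 cells passed in dura mater S3 and 14 in dura mater D3. The gate was checked with 6 microglia markers that are no members, among them Sparc, Fcrls, Cx3cr1, Slc2a5 and Adgrg1. A gate on at least 4 of these 6 took 404 and 537 cells in the brain, of which 399 and 524 also passed the first gate. Most gated cells of the brain were thus shared, and next to no cells passed in the dura mater. The gates differed in content: in S3, Apoe stood at 10109 CPM in the first and 5944 in the second, and Axl at 60.8 and 26.2. Whether the cells of the first gate alone are microglia was not tested. Cells that had lost most members could not enter the first gate, and the second gate did not use the members.

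P2ry12 and P2ry13, both receptors for extracellular ADP, lie side by side on the minus strand of mouse chromosome 3, at chr3:59216272-59262871 and chr3:59207892-59210882 (GRCm38, GENCODE vM21), and both overlap Med12l on the other strand. Gpr34 (chrX:13632089-13640858) likewise overlaps Cask on the other strand and Csf1r overlaps Hmgxb3 on the other strand and Mir6983 on its own, and the sources used here do not say whether reads were counted by strand. Tmem119 (chr5:113793729-113800516) and Selplg (chr5:113818536-113832644) are also neighbours on 1 strand, with Crybb1 on the same chromosome at chr5:112255815-112269585. Olfml3 is at chr3:103722222-103738001, Siglech at chr7:55768178-55778925 and Sall1 at chr8:89027235-89044162. The 250 bases before the start sites of P2ry12 and P2ry13, the 2 genes with the lowest D3 to S3 ratios, and of Olfml3, with the highest, are shown as RefSeq gives them for GRCm38.p6 on the strand of the gene. They are at chr3:59262986-59263235, chr3:59210883-59211132 and chr3:103738002-103738251, all on the minus strand. Capitals mark the core GAGGAA, bound by PU.1, the factor encoded by Spi1 on which macrophages depend.
P2ry12: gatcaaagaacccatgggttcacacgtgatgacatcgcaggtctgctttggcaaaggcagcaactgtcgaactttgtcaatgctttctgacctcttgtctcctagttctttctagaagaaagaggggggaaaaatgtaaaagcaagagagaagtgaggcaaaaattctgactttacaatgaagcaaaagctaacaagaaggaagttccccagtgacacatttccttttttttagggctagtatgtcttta
P2ry13: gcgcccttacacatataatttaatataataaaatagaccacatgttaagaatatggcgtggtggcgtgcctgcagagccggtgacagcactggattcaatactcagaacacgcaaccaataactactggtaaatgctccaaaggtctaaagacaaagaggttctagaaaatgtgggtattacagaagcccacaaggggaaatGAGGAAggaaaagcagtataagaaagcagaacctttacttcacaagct
Olfml3: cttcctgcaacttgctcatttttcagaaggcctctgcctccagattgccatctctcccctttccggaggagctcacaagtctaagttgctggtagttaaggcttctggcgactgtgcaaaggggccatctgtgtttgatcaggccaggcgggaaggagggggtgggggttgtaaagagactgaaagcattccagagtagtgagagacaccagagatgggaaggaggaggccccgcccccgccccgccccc
RefSeq windows were matched for 6 of the 10 members. On either strand, GAGGAA was in 1 of these 6, P2ry13, with its first base 48 bases before the start, and in 23.3% of all 32851 windows of this length. The AP-1 site TGACTCA was in 0 of the 6 and in 4.46% of all windows. No difference between the promoters of the gene that changed least and of those that changed most can be read from these letters.

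Among the receptors, the pair that senses ADP was lowest against sham. P2ry12, which guides microglial processes towards injury, stood at 1776 CPM (95% interval 1738 to 1814) in microglia-gated cells of brain S3. In brain D3 it stood at 850.0 CPM (95% interval 831 to 869.6), a log2 ratio of -1.06 (-1.11 to -1.02). P2ry13 stood at 407 CPM (95% interval 389 to 425) in S3 and 172 CPM (95% interval 163 to 180.3) in D3, a log2 ratio of -1.25 (-1.34 to -1.15). For both ADP receptors the intervals of S3 and D3 lay far apart, and D3 was at 47.9% and 42.2% of S3. Gpr34, a receptor for lysophosphatidylserine, stood at 1246 CPM (95% interval 1215 to 1278) in S3 and 737 CPM (95% interval 719 to 755) in D3. Its log2 ratio was -0.76 (-0.81 to -0.71). Csf1r, the receptor for CSF1 and IL-34, stood at 3258 CPM (95% interval 3206 to 3311) in S3 and 2059 CPM (95% interval 2029 to 2090.3) in D3, a log2 ratio of -0.66 (-0.69 to -0.63).

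The surface proteins followed the same direction. Siglech, which encodes a receptor of the Siglec family of lectins, stood at 953 CPM (95% interval 926 to 981) in S3. In D3 it stood at 472 CPM (95% interval 458 to 486), a log2 ratio of -1.01 (-1.07 to -0.95). Selplg encodes PSGL-1, the ligand by which leukocytes bind selectins. It stood at 2101 CPM (95% interval 2059 to 2143) in S3 and 1165 CPM (95% interval 1143 to 1189) in D3, a log2 ratio of -0.85 (-0.89 to -0.81). Tmem119, a membrane protein widely used to tell microglia from other macrophages, stood at 1224 CPM (95% interval 1192 to 1255) in S3 and 764 CPM (95% interval 746 to 783) in D3. Its log2 ratio was -0.68 (-0.73 to -0.63).

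Sall1 encodes the zinc finger factor that maintains microglial identity. It stood at 163 CPM (95% interval 152 to 174) in S3 and 101 CPM (95% interval 95.1 to 108) in D3, a log2 ratio of -0.68 (-0.82 to -0.54). Crybb1, a crystallin known from the lens, stood at 385 CPM (95% interval 368 to 402) in S3 and 276 CPM (95% interval 265 to 287) in D3, a log2 ratio of -0.48 (-0.57 to -0.39). The secreted glycoprotein Olfml3 hardly differed: 1400.5 CPM (95% interval 1367 to 1435) in S3 against 1333 CPM (95% interval 1309 to 1358) in D3, a log2 ratio of -0.071 (-0.12 to -0.027). Olfml3 was the least changed of the 10 members and P2ry13 the lowest against S3, and both held these places in this calculation and its 11 alternatives, though Olfml3 did not in the largest cells described further on.

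**Figure D1:**
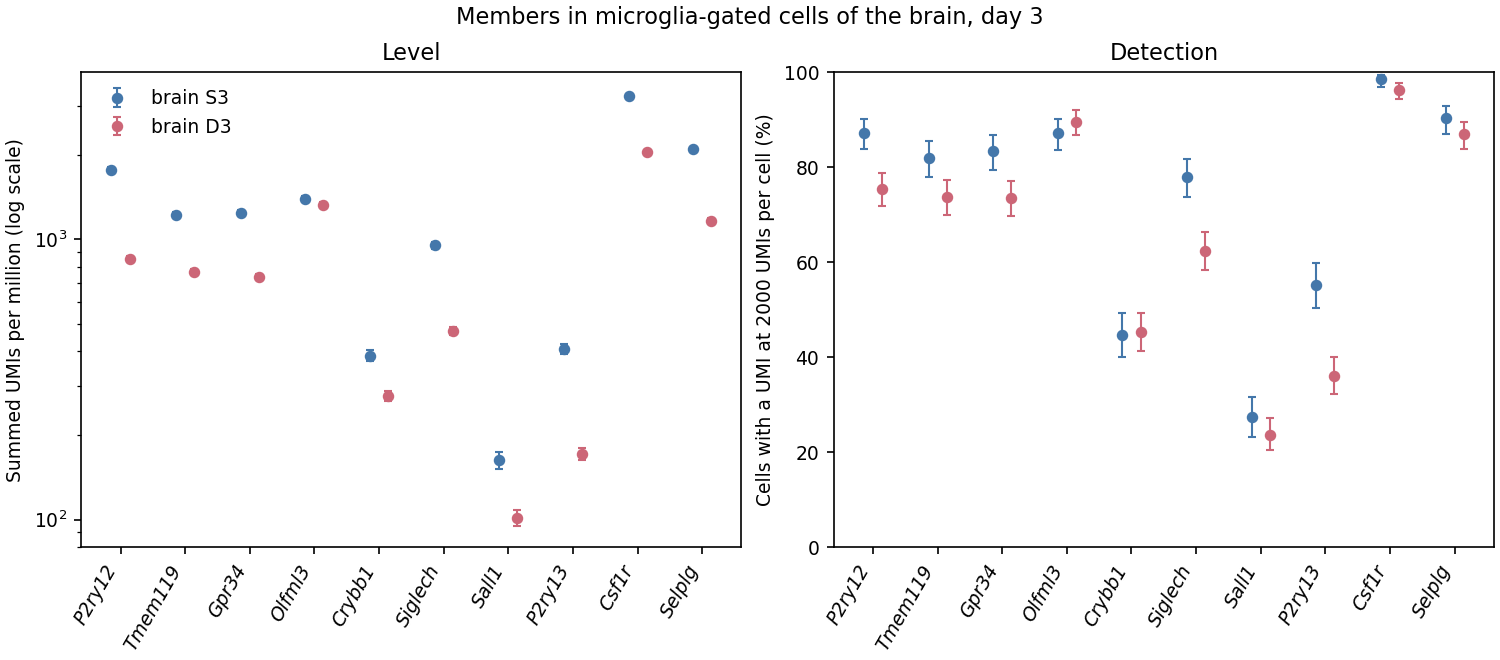
Left, level of each member in microglia-gated cells of brain S3 (blue) and brain D3 (red) as CPM from summed UMIs, on a log axis. Right, percent of these cells with a UMI after each cell was thinned to 2000 UMIs. Bars are exact 95% intervals for counting error in 1 library per group. All 10 levels lie lower in D3 (Olfml3 turned to a log2 ratio of 0.051 once the median of all genes was subtracted), and the points of Olfml3 and Crybb1 nearly coincide on the right.

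Over the 10 members the median log2 ratio was -0.72 (medians of the interval bounds -0.81 to -0.67), against -0.12 for all 8548 genes with at least 100 UMIs. Relative to that all-gene value the members' median was -0.60, and Olfml3 stood at 0.051 and the other 9 below 0. On this scale P2ry13 was lower by at least 2-fold as 1 of 10, beside 1.497% of all genes. By a fold of 2, 3 of 10 members were lower (P2ry12, Siglech and P2ry13), beside 2.35% of all genes. In the cells chosen by the 6 markers that are no members the median was -0.72 as well, and all 10 intervals lay below 0 before any centring, beside 31.4% of all genes. There 1 of 10 members, P2ry13 at -1.19 (-1.29 to -1.09), was lower by at least 2-fold, beside 1.83% of all genes, with P2ry12 at -0.98 (-1.03 to -0.94) and Siglech at -0.94 just inside that fold. Olfml3 was at -0.12 (-0.16 to -0.07) in these cells.

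When each cell was given the same weight, the differences were smaller. The ratio of the mean CPM per cell was -0.82 on the log2 scale for P2ry13, -0.62 for P2ry12, -0.56 for Siglech and -0.26 for Tmem119. The median over members was -0.41, 0 of 10 members were lower by at least 2-fold, and Olfml3 was at -0.0062. With every cell thinned to 2000 UMIs before gating and summing, the median was -0.32 and again 0 of 10 members were lower by at least 2-fold. The median and the share of all genes were not computed for either calculation.

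**Figure D2:**
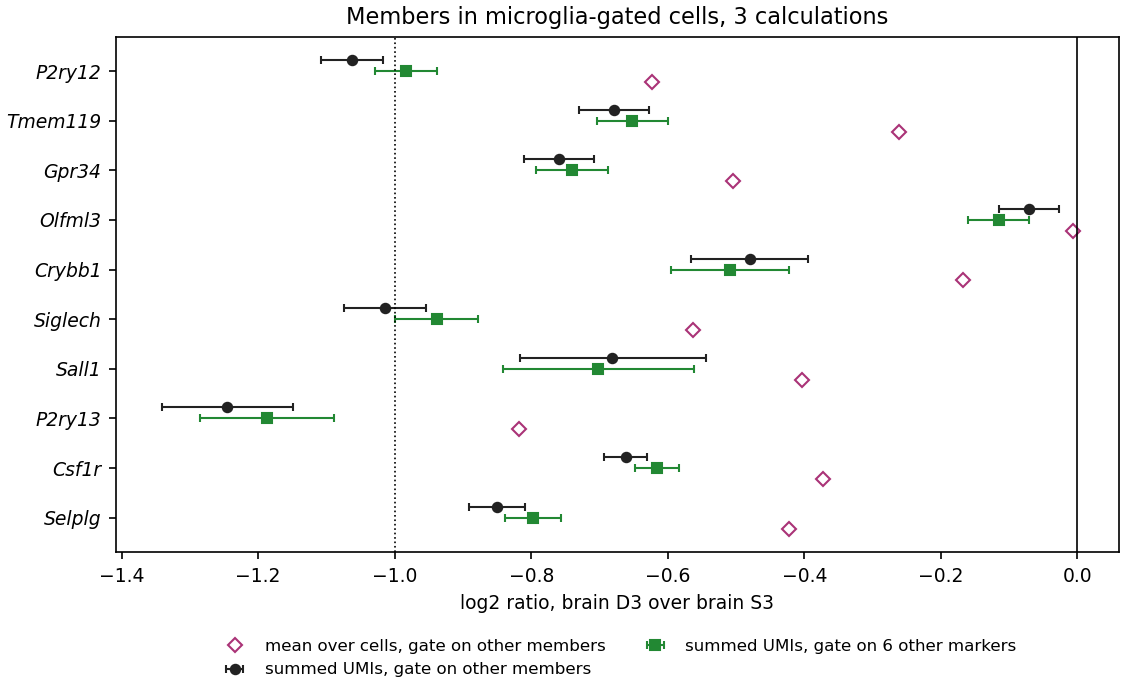
log2 ratio of each member, brain D3 over brain S3, by 3 calculations: summed UMIs in cells gated by the other 9 members (circles), summed UMIs in cells gated by 6 markers that are no members (squares), and means over cells gated by the other members (open diamonds, no interval). Bars are exact 95% intervals for counting error, the dotted line is 2-fold lower. Circles and squares lie close together, and the diamonds lie nearer to 0 for every member.

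The lower levels were seen across the cells. The median CPM per cell of P2ry12 was 2010.1 in S3 (quartiles 1089 to 2821) and 1057 in D3 (quartiles 389 to 1996). Of the D3 cells, 75.6% lay below the S3 median of P2ry12, 75.9% below that of P2ry13 and 74.8% below that of Siglech. For Gpr34, Csf1r and Selplg the share was 73.9%, 73.7% and 73.5%. It was lower for Tmem119 (62.2%), Sall1 (62.1%) and Crybb1 (55.8%), and for Olfml3 it was 52.3%, with an interval of 48.2 to 56.5.

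Detection pointed the same way where the depth of all cells was set equal. At 2000 UMIs per cell, P2ry13 was seen in 55.2% (50.4 to 59.9) of microglia-gated cells in S3 and in 36.0% (32.2 to 40.0) in D3. Siglech was seen in 78.0% (73.8 to 81.7) and 62.5% (58.5 to 66.3), and P2ry12 in 87.3% (83.8 to 90.3) and 75.4% (71.7 to 78.8). Unthinned, the P2ry12 shares were 96.5% and 95.6%, so that nearly every cell still had a UMI. Tmem119 was seen in 81.9% and 73.7% and Gpr34 in 83.3% and 73.6% of thinned cells. Intervals overlapped for Crybb1 (44.6% and 45.2%), Sall1 (27.4% and 23.7%), Olfml3 (87.2% and 89.6%), Csf1r (98.6% and 96.3%) and Selplg (90.3% and 86.9%). In T-gated cells of the same libraries, which should lack P2ry12, P2ry12 was seen in 1.09% and 3.61% at the same depth.

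The 10 members were also added up in each thinned cell, in the cells of the gate that did not use them. The median cell had UMIs of 8 members in S3 (10th to 90th percentile 6 to 9) and of 7 in D3 (4 to 9). Cells with fewer than 4 members were 2.97% of 404 cells in S3 (1.54 to 5.13) and 8.19% of 537 in D3 (6.02 to 10.8). Summed UMIs of the members per 2000 had a median of 31 in S3 (10th to 90th percentile 16 to 44) and 23 in D3 (7 to 39). The D3 sums lay lower at each of these percentiles, and the ranges of the libraries overlapped widely.

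**Figure D3:**
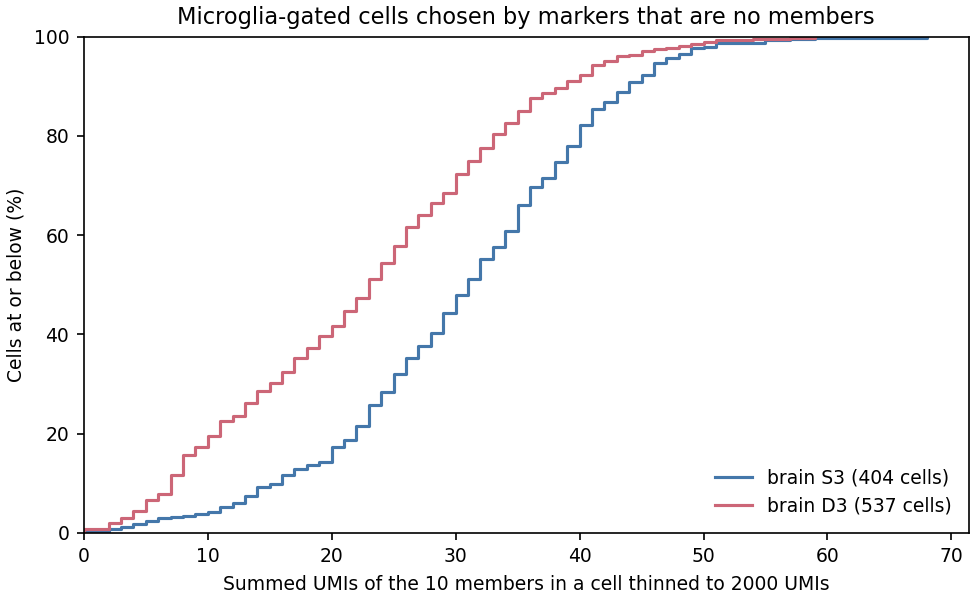
Cumulative percent of microglia-gated cells (chosen by markers that are no members) by the summed UMIs of the 10 members in a cell thinned to 2000 UMIs, for 404 cells of brain S3 (blue) and 537 of brain D3 (red), 1 library each. The median is 31 in S3 and 23 in D3, and the curves join at the upper end.

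The UMI total of the cells moved with the members. Cell size here means this total, in which RNA content, read depth and doublets left after filtering cannot be told apart. Microglia-gated cells of over 20000 UMIs were 30 of 440 (6.82%) in S3 and 168 of 598 (28.1%) in D3, and in D3 they gave 58.5% of all UMIs summed, against 16.6% in S3. In both libraries the members were lower in the larger cells: P2ry12 stood at 2357 CPM in S3 cells of under 10000 UMIs, at 1587 in those of 10000 to 20000 and at 889 in those above, and in D3 at 1805, 998 and 398. The 6 granulocyte markers summed to 586 CPM in the S3 cells of under 10000 UMIs and 2403 in those above 20000, and to 686 and 3287 in D3. The 11 activation genes summed to 5377 and 27939.6 CPM in S3 and to 8838 and 24039 in D3. Over cells of all sizes, most of the activation sum was Apoe, 10109 of 13852 CPM in S3 and 10481 of 19404 in D3. The granulocyte and activation sums moved with cell size as well, and their part in the lower level of the members was not tested. This split by cell size was chosen after the levels had been seen.

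Within cells of like size the order of the members was kept in part. In cells of under 10000 UMIs the median log2 ratio was -0.23, against -0.064 for all genes, with 7 of 10 intervals below 0, beside 13.5% of all genes. P2ry13 was at -0.61 (-0.75 to -0.48), P2ry12 at -0.38 (-0.45 to -0.32), Siglech at -0.32 (-0.41 to -0.24) and Gpr34 at -0.32 (-0.40 to -0.25). Sall1, Selplg and Csf1r were at -0.25 (-0.46 to -0.05), -0.20 (-0.26 to -0.15) and -0.16 (-0.20 to -0.11). The intervals of Tmem119 (-0.058, -0.13 to 0.013), Olfml3 (0.033, -0.037 to 0.10) and Crybb1 (0.074, -0.052 to 0.20) held 0, so that these 3 genes did not differ beyond counting error in smaller cells.

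In cells of 10000 to 20000 UMIs the median was -0.47 and 9 of 10 intervals lay below 0, beside 17% of all genes, with Olfml3 at 0.0024 (-0.08 to 0.084). Tmem119 was at -0.49 (-0.59 to -0.39) here. In cells of over 20000 UMIs, 28 to 32 cells of S3 against 158 to 175 of D3 depending on the member, the median was -0.54 and 7 of 10 intervals lay below 0, beside 16.8% of all genes. Lower by at least 2-fold were 2 of 10, beside 3.06% of all genes, P2ry13 and P2ry12, at -1.23 (-1.49 to -0.97) and -1.16 (-1.28 to -1.03). Olfml3 was higher in D3 in these cells, at 0.47 (0.35 to 0.59). Crybb1 was at 0.29 (-0.0013 to 0.59) in the same cells, an interval that held 0. P2ry12, P2ry13, Siglech, Gpr34, Csf1r and Selplg had intervals below 0 in each of the 3 size classes.

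**Figure D4:**
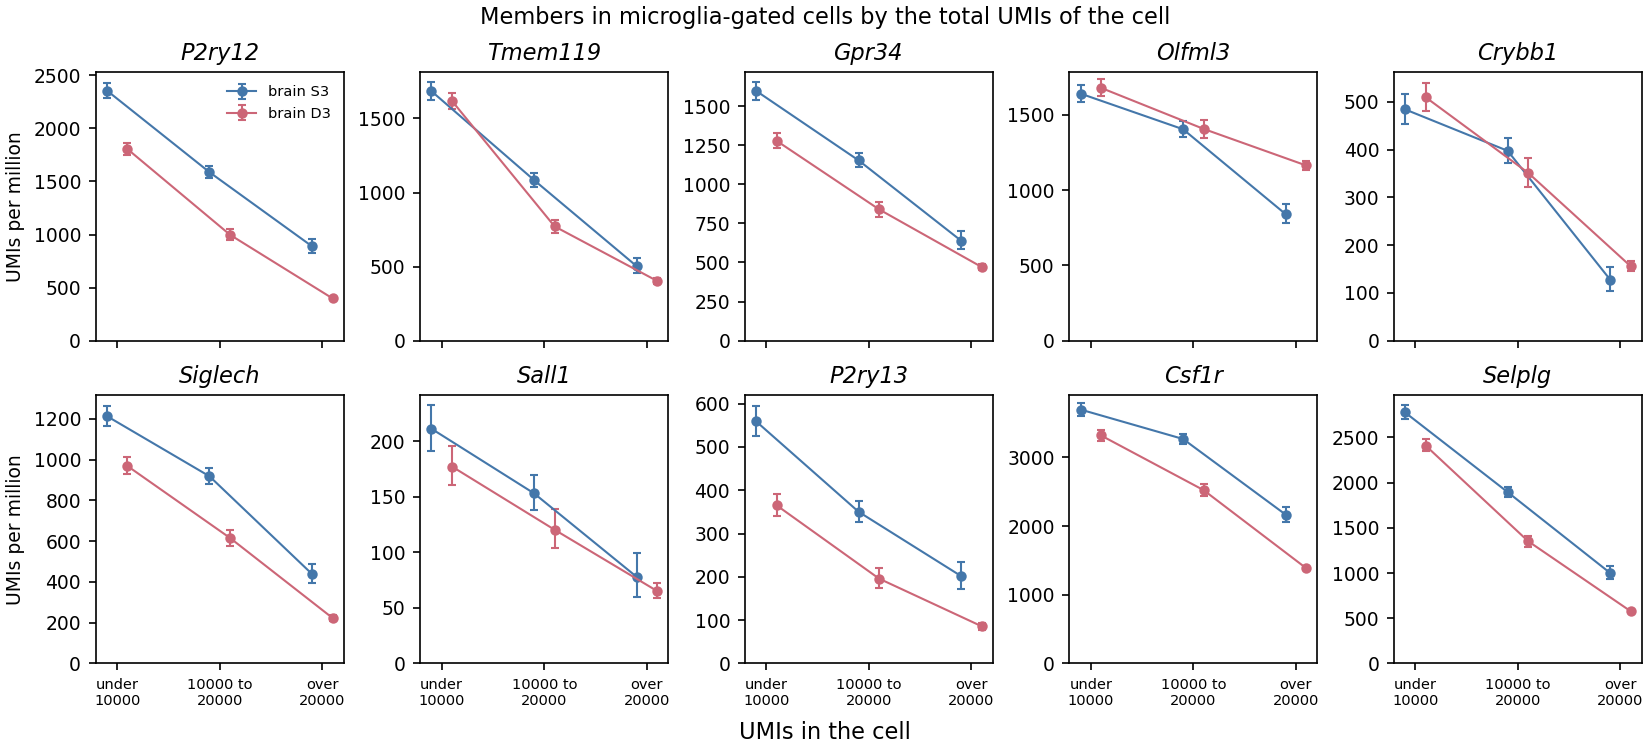
Level of each member (CPM, axes from 0, a scale of its own for each gene) in microglia-gated cells of under 10000, 10000 to 20000 and over 20000 UMIs, for brain S3 (blue) and brain D3 (red). Bars are exact 95% intervals for counting error in 1 library per group. Levels decrease with cell size in both libraries. P2ry12, P2ry13, Siglech, Gpr34, Csf1r, Selplg, Tmem119 and Sall1 lie lower in D3 in all 3 size classes. Olfml3 does not, and Crybb1 lies lower only in cells of 10000 to 20000 UMIs.

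D3 microglia-gated cells had a mean of 15056 UMIs against 11056 in S3, and counted as molecules per cell 9 of 10 members differed less and Olfml3 was higher in D3. The mean UMIs of P2ry12 per cell were 19.6 in S3 and 12.6 in D3, and of P2ry13 4.51 and 2.59. Csf1r had 35.7 and 30.6 UMIs per cell and Crybb1 4.32 and 4.12. Olfml3 had 15.5 UMIs per cell in S3 and 19.7 in D3. The UMIs of a cell also depend on how deeply its library was read, which was not given here.

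Cell by cell, the members went together weakly. Over the 45 pairs of members, Spearman correlations across 404 thinned cells of S3 had a median of 0.16, from 0.026 for Crybb1 and Sall1 to 0.45 for P2ry12 and Selplg. Across 537 cells of D3 the median was 0.26, from 0.083 for Crybb1 and Sall1 to 0.54 for Tmem119 and Selplg. These cells share a library, counts of a single UMI weigh on the lower genes, and the values are given as a description.

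Other genes of the same cells were taken by lists. Of 12 other homeostatic genes, 11 were lower in D3 in the cells gated by members, with a median log2 ratio of -0.61, against -0.12 for all genes. Lower by at least 2-fold were 2 of 12, beside 2.35% of all genes. Those 2 were the TGF-beta receptor gene Tgfbr1, from 583 to 285 CPM, and the fructose transporter gene Slc2a5, from 222 to 108 CPM. The fractalkine receptor gene Cx3cr1 went from 2572 to 1428 CPM. Bin1 stood at 705.1 CPM in S3 and 704.96 CPM in D3, and Fcrls, an Fc receptor-like gene, was higher in D3 at 0.25 (0.22 to 0.29). In the cells of the other gate, which was set by 6 of these 12 genes, the median was -0.59, against -0.12 for all genes. There 0 of 12 were lower by at least 2-fold, beside 1.83% of all genes.

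Beside Csf1r and Tgfbr1, given above, 10 regulators of macrophages and microglia were taken as a list. Of these 10, 9 had at least 10 UMIs and none of these differed by 2-fold in either direction, with a median of -0.26. Spi1, which encodes PU.1, was at -0.053 (-0.13 to 0.02) and Irf8, its partner in macrophages, at -0.062 (-0.14 to 0.011). Mef2a, a factor of the microglial set, was at -0.67 (-0.75 to -0.59). Of the signals themselves, Tgfb1 was at -0.25 (-0.34 to -0.17) and Csf1, the ligand of Csf1r, was higher in D3 at 0.41 (0.26 to 0.57). Il34, the other ligand, had 1 UMI in S3 and 0 in D3.

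Several genes of activated microglia were higher. Of 11 measured genes of this list, 6 were higher in D3 by at least 2-fold, beside 3.81% of all genes, and in the cells of the other gate 4 were, beside 3.88%. Spp1, which encodes osteopontin, went from 59.8 to 1829 CPM, a log2 ratio of 4.93 (4.77 to 5.11). Lgals3, which encodes galectin-3, went from 82.4 to 554 CPM, Cst7 from 23.2 to 71.2 CPM and the chemokine gene Ccl12 from 208 to 501 CPM. Itgax was lower, at -0.56 (-0.95 to -0.17). Gpnmb was not higher in either gate, at -0.043 (-0.41 to 0.33) in the cells gated by members and -0.40 (-0.80 to -0.0072) in the others. The part of RNA from other cells in the higher levels was not tested. Apoe and Axl depended on the gate: Apoe was at 0.052 (0.036 to 0.068) in the cells gated by members and 0.54 (0.52 to 0.56) in the others, and Axl at -0.38 (-0.59 to -0.16) and 0.54 (0.22 to 0.86). Within a library, the sum of the 10 members and the sum of the 11 activation genes in a thinned cell were compared by Spearman correlation. It was -0.43 over 404 cells of S3 and -0.59 over 537 cells of D3, a description in which both sums share the same 2000 UMIs. Most of the activation sum in this gate was Apoe, 5944 of 9714 CPM in S3 and 8666 of 16375 in D3. By member, the correlation with the activation sum ran from -0.45 for P2ry12 to -0.097 for Csf1r in S3 and from -0.53 for Selplg to -0.15 for Sall1 in D3.

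RNA of other cell types and of stress moved in the same cells. Summed over 6 granulocyte markers, microglia-gated cells had 868 CPM in S3 and 2287 in D3, against 246210.0 and 244618 CPM in granulocyte-gated cells. The 6 markers of Ly6C high monocytes summed to 76.5 and 202 CPM, 5 of them higher in D3, and those of infiltrating macrophages to 836 and 985 CPM, 4 of them higher in D3. Most of the latter sum was Hmox1 (768 to 595 CPM), and the other 5 summed to 68.5 and 389.7 CPM. Among these Fn1 went from 1.44 to 140.4 CPM and Arg1 from 1.23 to 23.7 CPM. None of these markers was at 0 in either library. The 6 border macrophage markers summed to 450.0 and 424 CPM and the 8 genes of neurons, glia and endothelium to 29.2 and 29.5, with Syt1 and Aqp4 at 0 in 1 library. All 12 genes of dissociation stress were lower in D3, from a sum of 26688 to 14183 CPM. The part of these genes in the lower level of the members was not tested. With cells removed that reached the minimum of more than 1 lineage, 384 and 480 cells were left, the median over members was -0.59 and 1 of 10 was lower by at least 2-fold. The share of all genes was not computed for the cells left.

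**Figure D5:**
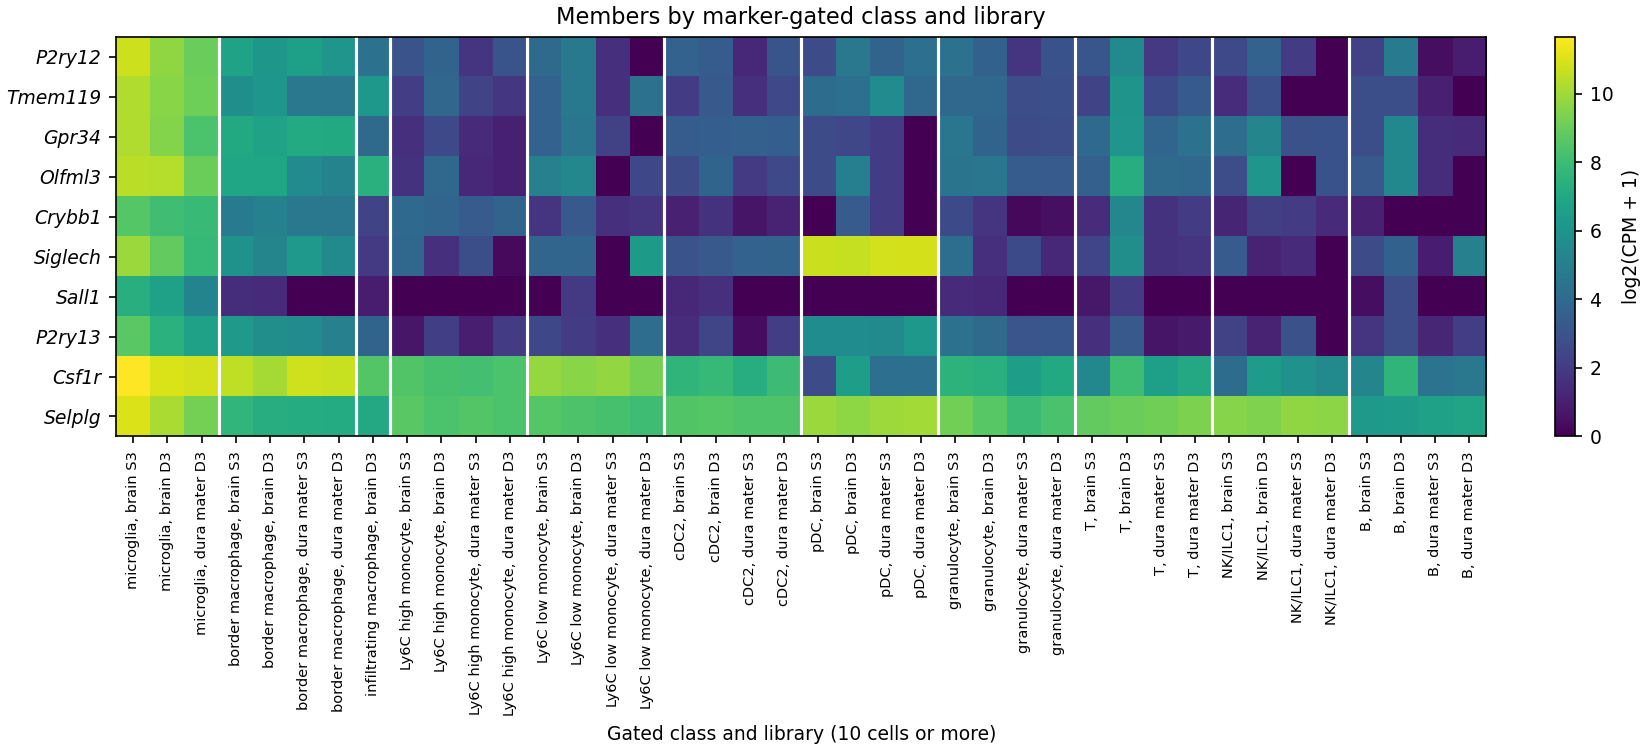
Level of each member as log2(CPM + 1) by marker-gated class and library, for groups of at least 10 cells, each class set without the member shown. The microglia column of brain S3 is highest for every member but Siglech, which is highest in pDC. Csf1r extends to border macrophages and Ly6C low monocytes, Selplg to every class, and Sall1 is at 11.8 CPM or below outside microglia.

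Against the other classes of the same library, the members set microglia apart to different degrees. Border macrophage-gated cells (6 markers, among them Mrc1, Pf4 and Ms4a7) numbered 253 in brain S3. There the microglia-gated cells were higher for all 10 members, with a median log2 ratio of 3.71, and 8 of 10 were higher by at least 8-fold, beside 1.29% of all genes. Sall1 was furthest apart at 6.41 (5.28 to 7.86), with 1.92 CPM in border macrophages, and Tmem119 followed at 4.46 (4.25 to 4.68). P2ry13 at 2.41 (2.22 to 2.61) and Csf1r at 1.13 (1.08 to 1.18) were the 2 members under 8-fold. In brain D3, with 387 border macrophages, the median was 3.25 and 6 of 10 were higher by at least 8-fold, beside 0.975% of all genes. Tmem119 was then at 3.48 (3.33 to 3.64) and P2ry13 at 1.70 (1.51 to 1.88).

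Infiltrating macrophage-gated cells (Arg1, Gpnmb, Fn1, Thbs1, Fabp5, Hmox1) numbered 1024 in brain D3 and 4 in brain S3. Against them the microglia-gated cells of D3 were higher for all 10 members, with a median of 4.58, and 8 of 10 were higher by at least 8-fold, beside 2.54% of all genes. Siglech was furthest apart at 7.33 (6.99 to 7.70), with 2.93 CPM (95% interval 2.28 to 3.70) in infiltrating macrophages. Sall1 and Crybb1 followed at 6.90 (6.27 to 7.62) and 6.01 (5.72 to 6.31). Olfml3 at 2.96 (2.91 to 3.01) and Csf1r at 2.45 (2.41 to 2.48) were closest. Infiltrating macrophages had 171 CPM (95% interval 166 to 177) of Olfml3 and 73.1 CPM (95% interval 69.7 to 76.6) of Tmem119. T-gated cells of that library had 153 CPM of Olfml3 and 64.1 CPM of Tmem119, near these levels. At 2000 UMIs per cell, Olfml3 was seen in 24.9% (22.3 to 27.7) and Tmem119 in 12.9% (10.9 to 15.1) of infiltrating macrophages, against 7.22% and 5.67% of T-gated cells of that library. Level and detection thus set the 2 classes apart to different degrees. Siglech was seen in 0.69% (0.278 to 1.42) of infiltrating macrophages and 3.09% (1.14 to 6.61) of T-gated cells.

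The level in classes that should lack most of the genes did not move one way, though intervals above 0 were more common in most classes other than granulocytes. Among members with enough UMIs in the brain, B-gated cells had 4 intervals above 0 and 0 below. The counts were 3 and 0 in cDC2, 3 and 1 in NK/ILC1, 4 and 3 in Ly6C high monocytes and 1 and 1 in Ly6C low monocytes. The share of all genes was not computed for these classes. T-gated cells had 7.81 CPM (95% interval 5.74 to 10.4) of P2ry12 in S3 and 45.1 CPM (95% interval 35.6 to 56.5) in D3, and of Olfml3 10.8 and 153 CPM. The D3 UMIs of P2ry12 were in 9.79% of 194 T-gated cells. Of 10 members, 9 had enough UMIs in T-gated cells and all 9 had intervals above 0, beside 19.4% of all genes. Among these 9 was Selplg, which T-gated cells carry themselves, at 465 CPM in S3 and 518 in D3. In granulocyte-gated cells of the same libraries 0 of 10 members had an interval above 0 and 4 had one below 0, beside 28.7% of all genes: P2ry12 stood at 20.1 and 11.2 CPM, Gpr34 at 22.8 and 12.4 and Siglech at 17.7 and 1.99, and Selplg, which granulocytes carry themselves, was the other. With the level of T-gated and B-gated cells subtracted, the median over members in microglia-gated cells was -0.85, and no subtraction by granulocytes was made. For Selplg the level subtracted is not free RNA alone, because T cells carry the gene. Its log2 ratio was -1.28 after the subtraction.

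Border macrophages showed differences of their own between S3 and D3. In the brain the median over members was -0.38, with 6 intervals below 0, beside 25.4% of all genes: Csf1r went from 1490.5 to 1088 CPM (-0.45, -0.51 to -0.40), Siglech was at -0.65 (-0.94 to -0.36), P2ry12 at -0.56 (-0.78 to -0.35) and P2ry13 at -0.53 (-0.78 to -0.28). Tmem119 was higher in D3, 55.6 against 68.5 CPM (0.30, 0.039 to 0.56), where T-gated cells of the same libraries had 4.32 and 64.1 CPM and granulocyte-gated cells 13.8 and 13.9. Infiltrating macrophages of brain D3 had 73.1 CPM. In the dura mater, with 451 border macrophages in S3 and 703 in D3, the median was -0.14 and 5 of the 9 members with enough UMIs had intervals below 0, beside 17.4% of all genes. These were Siglech (-0.77, -0.96 to -0.59), P2ry13 (-0.55, -0.78 to -0.32), P2ry12 (-0.51, -0.67 to -0.35), Olfml3 (-0.41, -0.64 to -0.19) and Csf1r (-0.14, -0.18 to -0.11). Gpr34 stayed at 139.7 and 134 CPM there. P2ry12, P2ry13, Siglech and Csf1r were thus lower in D3 in microglia-gated cells and in the border macrophages of both tissues. Whether the size of the difference differs between these classes was not tested.

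The dura mater lets the members be read where microglia are next to absent. Sall1 had 0 UMIs in border macrophages of dura mater S3 and of dura mater D3, which allows up to 0.538 and 0.274 CPM (3 UMIs). In the same cells of S3, Csf1r stood at 1819 CPM (95% interval 1784 to 1854), Gpr34 at 139.7 CPM (95% interval 130.2 to 149.8), P2ry12 at 96.6 CPM (95% interval 88.7 to 105) and Siglech at 78.8 CPM (95% interval 71.7 to 86.5). T-gated cells of that library had 2.83 CPM of P2ry12. At 2000 UMIs per cell, P2ry12 was seen in 14.6% and Gpr34 in 22.3% of the border macrophages, against 0% and 2.87% of T-gated cells, so these 2 receptors were above background there. Tmem119 was at 24.1 CPM there, against 55.6 in border macrophages of brain S3.

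For each member the order of classes was its own. Csf1r in brain S3 stood at 3258 CPM in microglia-gated cells, 1490.5 in border macrophages, 896 in Ly6C low monocytes, 357 in Ly6C high monocytes, 198 in cDC2, 183 in granulocytes and 43.0 in T-gated cells. The intervals of cDC2 and granulocytes were 182 to 215 and 169.9 to 198, which overlap. In brain D3, infiltrating macrophages had 378 CPM (95% interval 369.9 to 386), above the 309 CPM of Ly6C high monocytes and below the 1088 CPM of border macrophages.

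Siglech was no microglia gene alone. Plasmacytoid dendritic cells (pDC), whose receptor it also is, had 1727 CPM (95% interval 1542 to 1929) in brain S3, 1622 CPM (95% interval 1458 to 1799) in brain D3, 1846 CPM (95% interval 1702 to 1999) in dura mater S3 and 1934 CPM (95% interval 1754 to 2127) in dura mater D3. These intervals overlap one another in part, and in each brain library pDC lay above microglia-gated cells. The pDC gate held 15 cells in brain S3 and 19 in brain D3 and was set without Siglech. Selplg and P2ry13 were also seen in pDC, P2ry13 from 45.7 CPM in dura mater S3 to 73.0 CPM in dura mater D3.

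Selplg was found in every class. In brain S3 it stood at 979 CPM in pDC, 751 in NK/ILC1, 574 in granulocytes, 465 in T-gated and 407 in Ly6C high monocytes, all below the 2101 CPM of microglia-gated cells. Border macrophages at 202 and B-gated cells at 77.5 CPM were lowest of these. In brain D3 infiltrating macrophages had 133 CPM, below the 330.2 CPM of Ly6C high monocytes of that library.

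Over all kept cells of a brain library, of which microglia-gated cells were 12.2% in S3 and 13.5% in D3, P2ry12 stood at 256 CPM in S3 and 137 in D3, Tmem119 at 174 and 148, and Olfml3 at 209 and 279. Olfml3 alone among these 3 was higher in D3.

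Genes with a like pattern were sought over the 38 groups of class and library with at least 50 cells, among 5711 genes, by Pearson correlation of log2(CPM + 1). The 5 genes nearest to the mean of the 10 members were Liph (0.92), Mlxipl (0.91), Ak1 (0.90), Mertk (0.90) and Lrrc3 (0.89). Of the members themselves, P2ry12 was nearest to that mean at 0.97 and Selplg furthest at 0.38. Each member is part of that mean, and the microglia groups were gated by the same members. Tmem119 and Olfml3 were nearest to each other (0.93), P2ry12 was nearest to Tmem119 (0.92) and P2ry13 to P2ry12 (0.89). Sall1 was nearest to Slc2a5 (0.97), Csf1r to Rin2 (0.95), Crybb1 to Srgap2 (0.90), Gpr34 to Tspan7 (0.89), Siglech to Fscn1 (0.86) and Selplg to Ifngr1 (0.78). These groups share libraries, so the values are descriptions. From S3 to D3 in microglia-gated cells, the 5 genes did not move alike: Mertk, a receptor for the uptake of dying cells, went from 325 to 209 CPM and Mlxipl from 71.5 to 46.1 CPM, while Ak1 went from 28.0 to 35.8 CPM.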

How the data were processed

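CD45+ cells of 4 libraries (brain S3, brain D3, dura mater S3, dura mater D3) were analysed. The authors mapped 3′ v3 reads with Cell Ranger 3.1.0 to mm10 and normalized them in Seurat 3.1.0, per the study's methods and the submitters' processing notes. Each deposited value is a natural log, taken of a gene's UMIs per 10000 UMIs in that cell after adding 1. The planned sums needed UMIs, which were recovered: on the linear scale 100.0% of values were whole multiples of the cell's smallest value within 1e-06. A gene absent from a library's list, which needed 3 cells, was taken as 0.

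Kept cells had over 1000 and under 6000 genes, with no more than 7% of UMIs mitochondrial. Scrublet (scanpy 1.11.5) marked 0.057% to 0.19% of 3 libraries and 19.1% of brain D3 by its automatic threshold, so the highest scores were removed instead, 0.8% of barcodes per 1000 barcodes. Classes other than microglia needed a UMI of at least 4 of 6 markers and the highest share of their list, always without the member measured. UMIs were summed per class and library and given as CPM with exact Poisson intervals, shares with Clopper-Pearson intervals, and ratios with the exact conditional interval for 2 Poisson counts, all at 95% and for counting error only. A gene at 0 in 1 of 2 groups was set to 3 UMIs. Ratios over a list used genes with at least 10 UMIs, ratios over all genes those with at least 100. No test between groups was possible with 1 library each. The ratio and its interval were tested on simulated sums with known folds. The gates, filters, thinning and other steps were not simulated.

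The 10 members, the marker lists and the other gene lists were chosen with earlier results of these data known. Genes were named as members, as genes of these lists, or as the 5 nearest by likeness and the nearest of each member. Alternatives covered the gate, the filters, doublets, weighting, depth, centring and free RNA. The authors' clusters were not used here. Positions are from GENCODE vM21 on GRCm38, promoters from RefSeq on GRCm38.p6. Software was Python 3.11.15, scipy 1.17.1, numpy 2.4.6, pandas 2.3.3 and matplotlib 3.10.9.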

Additional observations from a re-analysis of the deposited data

Results flagged for a closer look

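Tmem119 differed in opposite directions in 2 classes of the brain. In microglia-gated cells its log2 ratio of D3 over S3 was -0.68 (counting interval -0.73 to -0.63), and in border macrophage-gated cells it was 0.30 (0.04 to 0.56). With 1 library per condition this difference between classes was not tested. In the border macrophages of the brain Tmem119 stood at 55.6 CPM in S3 and 68.5 CPM in D3, and at 2000 UMIs per cell it was seen in 10.0% and 12.7% of them. In T-gated cells of the same libraries it went from 4.32 to 64.1 CPM and in granulocyte-gated cells it stood at 13.8 and 13.9 CPM. Ly6C high monocytes had 3.28 and 13.4 CPM and Ly6C low monocytes 11.7 and 25.4 CPM. Of these values all but the T-gated D3 value lay well below the border macrophages. Infiltrating macrophages of brain D3 had 73.1 CPM, above the border macrophages of that library. The part of free RNA in the border macrophage value was not tested.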

How the results depend on the processing

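No paired analysis was possible because each condition was 1 library and no labels pair them, and for the same reason no replicate could be left out. Of 11 alternatives, 10 kept each member's value below 0 in microglia-gated cells, but the interval held 0 for Olfml3 with doublets kept, without cells of 2 lineages and with thinned cells, and for Crybb1 and Sall1 with thinned cells. Subtracting the median of all genes turned Olfml3 to 0.051 and left the other 9 below 0. The median over members, -0.72, moved to -0.32 with thinned cells, -0.41 as a mean over cells, -0.95 without filters on cells, -0.59 without cells of 2 lineages, -0.60 minus the all-gene median and -0.85 with free RNA subtracted. Of 10 members, 3 were lower by at least 2-fold. This count moved to 1 in the gate on markers that are no members, without cells of 2 lineages and minus the all-gene median. It was also 1 in the cells of both gates (an alternative added after the data had been seen). It moved to 0 with thinned cells and as a mean over cells, and to 2 with at least 4 of 9 members and with doublets kept. Without filters on cells and with free RNA subtracted it moved to 4. With free RNA subtracted the member added was Selplg, at -1.28, which T cells carry themselves. Microglia over infiltrating macrophages, 4.58, moved to 5.51 with thinned cells, 4.08 without filters, 4.88 without cells of 2 lineages, 5.24 as a mean over cells, 4.42 minus the all-gene median and 5.09 with free RNA subtracted, the last over 4 members. Microglia over border macrophages moved within its counting interval under the 10 alternatives it was computed for. The share of all genes lower by at least 2-fold, 2.35%, was 6.41% among genes with at least 10 UMIs and 1.497% minus the all-gene median. It was 1.83% in the gate on markers that are no members and was not computed for the other alternatives. Causes of these changes were not tested. Shares of cells with a UMI moved with depth: for P2ry12 in S3 the share was 87.3% at 2000 UMIs per cell, 91.8% at 4000 and 96.5% unthinned.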
